A study of Rattus norvegicus with 11 samples.

Results

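Cell surface receptors that hold alveolar epithelial cells to their matrix were examined: the integrin genes Itgb1, Itga1, Itga7 and Itgb4, the hyaluronan receptor gene Cd44, and the syndecan genes Sdc1 and Sdc4. Every probe set annotated to exactly 1 of these genes was taken, which gave 15 of the 8740 probe sets tested and all 7 genes. Signal was measured in rat lung cells on 11 Affymetrix arrays. These held 3 samples of cultured alveolar type II (TII) cells on day 7, 4 of freshly isolated type I (TI) cells on day 0 and 4 of freshly isolated TII cells on day 0. TI cells are the flat cells that cover most of the alveolar surface, and TII cells are the cuboidal cells that make surfactant. The labels used here give no strain, age, sex, culture surface or isolation method, and 1 label field calls every sample isolated TI cells, so groups follow the description field. Whether the arrays of a group stand for different animals is not stated, and p-values therefore measure only the spread between these arrays, which may be technical.

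Integrins are pairs of an alpha and a beta chain that bind matrix outside the cell and, through talin and other linkers, actin filaments inside it. Itgb1 encodes the beta chain shared by many of these receptors, including the collagen receptor with the Itga1 chain and the laminin receptor with the Itga7 chain. Itgb4 encodes the beta chain of hemidesmosomes, which tie laminin to keratin filaments. CD44 binds hyaluronan and couples to actin through the ezrin, radixin and moesin family. Syndecans carry heparan sulfate chains that bind matrix proteins and growth factors, and their outer parts can be cut off by surface proteases. Syndecan 1 is known as the main syndecan of epithelia, and syndecan 4 is found at focal adhesions.

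The receptors followed 3 patterns. Itgb1 was about 2-fold higher on cultured TII arrays than on either kind of fresh cell, with no call between fresh TI and fresh TII. Sdc1 was about 2-fold lower on fresh TI arrays than on both TII groups. Sdc4, Itga7 and Cd44 were lower on both cultured TII and fresh TI arrays than on fresh TII arrays, each on at least 2 of their probe sets. Itga1 was slightly higher in fresh TI than in fresh TII cells, and no difference was called for Itgb4.

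The regions upstream of Itgb1, Sdc1 and Sdc4 are shown because these genes stand for the 3 patterns. Each is the 250 bases before the gene's start in RefSeq (build GRCr8), written 5′ to 3′ along the gene's strand. Capitals mark matches, on either strand, to the GC box GGGCGG, to the TATA-like run TATAA, to the AP-1 motif TGANTCA or to the NF-kappaB consensus. The Itgb1 window lies at chr19:73602027-73602276 (plus strand), that of Sdc1 at chr6:37281791-37282040 (plus strand) and that of Sdc4 at chr3:173592924-173593173 (minus strand).
Itgb1: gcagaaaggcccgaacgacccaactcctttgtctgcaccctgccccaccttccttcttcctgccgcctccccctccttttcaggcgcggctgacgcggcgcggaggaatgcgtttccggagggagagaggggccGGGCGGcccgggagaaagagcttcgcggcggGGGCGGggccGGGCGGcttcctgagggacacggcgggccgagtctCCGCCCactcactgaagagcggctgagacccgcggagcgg
Sdc1: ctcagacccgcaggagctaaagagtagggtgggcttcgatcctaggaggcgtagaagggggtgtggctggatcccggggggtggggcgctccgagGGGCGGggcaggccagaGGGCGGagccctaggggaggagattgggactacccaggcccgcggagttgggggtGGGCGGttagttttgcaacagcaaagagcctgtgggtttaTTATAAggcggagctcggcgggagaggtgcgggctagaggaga
Sdc4: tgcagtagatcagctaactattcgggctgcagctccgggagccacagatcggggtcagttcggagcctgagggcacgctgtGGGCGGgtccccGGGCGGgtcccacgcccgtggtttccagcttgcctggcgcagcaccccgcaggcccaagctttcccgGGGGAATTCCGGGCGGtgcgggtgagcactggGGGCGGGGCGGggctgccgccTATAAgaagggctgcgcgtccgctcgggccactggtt
The GC box matched 4 times in the Itgb1 window, 3 times in the Sdc1 window and 5 times, with 1 overlapping pair, in the Sdc4 window, and 30.5% of 33469 upstream windows of the same length hold it at least once. TATAA matched on both strands at overlapping places in the Sdc1 window and 1 time in the Sdc4 window, against 24% of all windows. In the Sdc4 window 1 stretch matched the NF-kappaB consensus, which 3.54% of windows hold, and it abuts a GC box. None of the 3 windows held TGANTCA (6.34% of windows). The windows were 71.2% (Itgb1), 65.2% (Sdc1) and 70% (Sdc4) G or C, against a median of 51.2% over all windows. A window was at hand for 5 of the 7 genes, and those of Itga1 and Cd44 held none of the 4 motifs. A match describes the letters only and was not set against any binding data.

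Signal is on a log2 scale as deposited, so a difference of 1 is 2-fold. A probe set was called at a limma adjusted p under 0.05 (Benjamini-Hochberg over all 8740 probe sets). In fresh TI against fresh TII cells, 11 of the 15 probe sets were called (73.3%), 1 higher and 10 lower, against 54.7% called among all probe sets. All probe sets were called higher for 34.3% and lower for 20.4%, and the 15 for 6.67% and 66.7%. The median difference was -0.75 over the 15 and 0.12 over all. Of the 15, 3 were called at least 2-fold lower and 0 at least 2-fold higher, against 5.22% and 2.28% of all probe sets. The groups did not overlap on 9 of the 15 and on 50.7% of all. In cultured against fresh TII cells 8 were called (53.3%, against 33.4% of all), 1 higher and 7 lower. The background for these directions was 19.1% higher and 14.3% lower. Here 1 was called higher by 2-fold or more and 3 lower by as much (all probe sets 4.45% and 4.22%), and 8 did not overlap (43.3% of all). In cultured TII against fresh TI cells 5 were called (33.3%, against 59.9% of all), a share below the background. Of these, 4 were higher and 1 lower, against 24.2% and 35.7% of all probe sets. At least 2-fold higher were 2 and lower 0 (6.53% and 2.41%), and 5 did not overlap (57.3%). All 3 comparisons called 2 of the 15, a share equal to the 13.3% of all probe sets, and 3 were called in none. The first and second comparison share the fresh TII arrays, and 7 of the 15 were called lower in both, as were 8.8% of all probe sets. Several probe sets report the same gene, so the 15 are not independent measures.

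**Figure D1:**
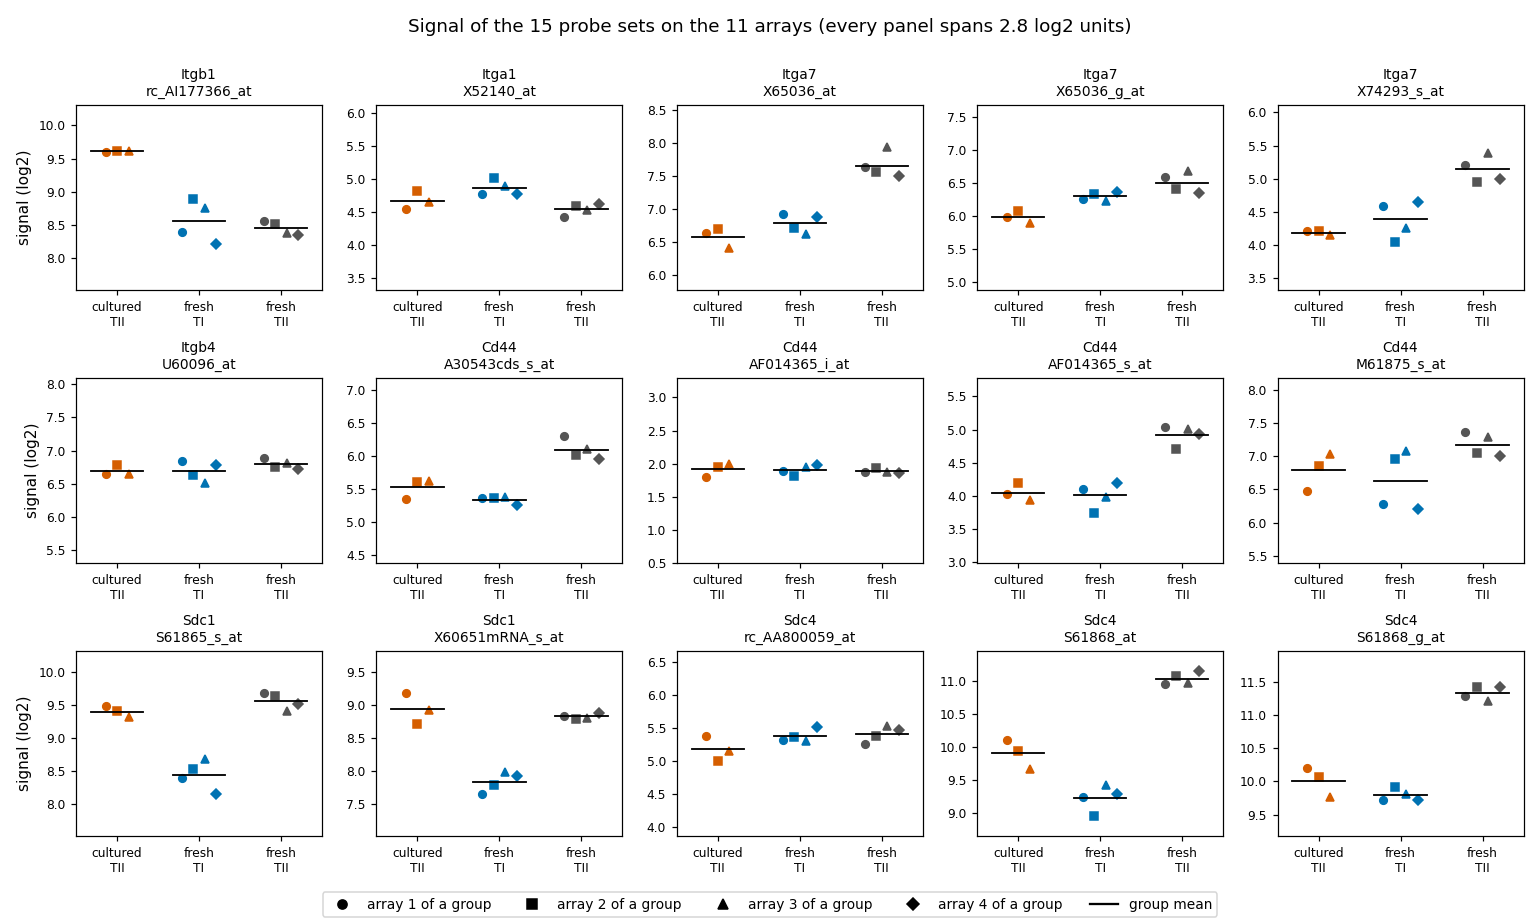
Signal (log2) of each of the 15 probe sets on the 3 cultured TII, 4 fresh TI and 4 fresh TII arrays. Points are arrays, the marker shape gives the array number within its group, and lines are group means. Itgb1 stands at 9.61 to 9.62 on the cultured arrays, above its fresh arrays, and the brightest Sdc4 probe set at 11.2 to 11.4 on the fresh TII arrays, above its other arrays.

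Itgb1 (Entrez gene 24511) was measured by 1 probe set, rc_AI177366_at. Its signal was 9.61, 9.62 and 9.62 on the 3 cultured TII arrays, 8.38, 8.88, 8.75 and 8.21 on the fresh TI arrays and 8.56, 8.51, 8.38 and 8.35 on the fresh TII arrays. All cultured arrays lay above every fresh array, and the fresh TI arrays spanned the range of the fresh TII arrays. The gene rose in culture, with a difference of 1.16 ± 0.14 (SE) from fresh TII cells (2.24-fold, adjusted p = 1.65e-05). Against fresh TI cells cultured TII cells were higher by 1.06 ± 0.14 (2.08-fold, adjusted p = 3.62e-05). Fresh TI and fresh TII cells differed by 0.11 ± 0.13 (95% interval -0.16 to 0.38, adjusted p = 0.47). This last difference depends on the scaling: quantile normalization gave 0.38 (adjusted p = 0.00441) and weighting the arrays 0.24 (adjusted p = 0.0464). It turned to -0.15 (adjusted p = 0.142) without fresh TI arrays 2 and 3.

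Itga1 (25118), the alpha chain of a collagen receptor, also had 1 probe set, X52140_at. It was dim, at 4.55, 4.82 and 4.64 in cultured TII cells, 4.78, 5.02, 4.89 and 4.77 in fresh TI cells and 4.42, 4.59, 4.53 and 4.62 in fresh TII cells. The fresh TI arrays all lay above the fresh TII arrays, and the cultured arrays overlapped both. The fresh TI difference of 0.32 ± 0.08 (1.25-fold, adjusted p = 0.00636) is to be read against the median of 0.12 over all probe sets. Cultured cells differed from fresh TII cells by 0.13 (95% interval -0.066 to 0.33, adjusted p = 0.326) and from fresh TI cells by -0.19 (-0.39 to 0.0021, adjusted p = 0.0798). The order of means was thus fresh TI, cultured TII and fresh TII, in which neighbours were not separated. Without cultured TII array 2, cultured TII minus fresh TI was -0.27 and called (adjusted p = 0.0346).

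Itga7 (81008), the alpha chain of a laminin receptor known best from muscle, had 3 probe sets. X65036_at, the brightest, read 6.63, 6.71 and 6.41 in culture, 6.93, 6.72, 6.63 and 6.88 in fresh TI cells and 7.64, 7.56, 7.94 and 7.49 in fresh TII cells. No cultured or fresh TI array reached the lowest fresh TII array. The gene was lower in fresh TI than in fresh TII cells, by -0.87 ± 0.11 (adjusted p = 3.07e-05), and fell in culture to a difference of -1.07 ± 0.12 (2.10-fold lower, adjusted p = 8.92e-06). X74293_s_at gave -0.75 ± 0.13 (adjusted p = 0.000521) and -0.95 ± 0.14 (adjusted p = 0.000153) for the same comparisons. On X65036_g_at the differences were smaller, -0.21 ± 0.08 (adjusted p = 0.0457) for fresh TI, with overlapping arrays, and -0.52 ± 0.09 (adjusted p = 0.000435) for culture. The fresh TI call of that probe set was lost after quantile normalization (adjusted p = 0.0581), in 7 of the 11 fits that left out 1 array, and in the fit that blocked on replicate number (adjusted p = 0.0759). Between cultured TII and fresh TI cells it was the only Itga7 probe set called, at -0.31 ± 0.09 (adjusted p = 0.0095), beside -0.20 on each of the others. X74293_s_at passed without fresh TI array 2 (-0.31, adjusted p = 0.049) and without fresh TI arrays 2 and 3 (-0.43, adjusted p = 0.00959).

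Itgb4 (25724), the hemidesmosome beta chain, showed no called difference on its probe set U60096_at. The values were 6.65, 6.78 and 6.65 in cultured TII cells, 6.84, 6.63, 6.52 and 6.78 in fresh TI cells and 6.88, 6.76, 6.81 and 6.72 in fresh TII cells, and all groups overlapped. Fresh TI minus fresh TII was -0.10 (95% interval -0.28 to 0.076, adjusted p = 0.305), cultured minus fresh TII -0.098 (-0.29 to 0.093, adjusted p = 0.465) and cultured TII minus fresh TI 0.0022 (-0.19 to 0.19, adjusted p = 0.984). The sign of the last value turned under several alternatives.

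Cd44 (25406), the hyaluronan receptor, had 4 probe sets, of which 3 carry an s suffix, Affymetrix's mark for sequence shared between transcripts. On A30543cds_s_at signal was 5.35, 5.61 and 5.63 in culture, 5.36, 5.37, 5.38 and 5.27 in fresh TI cells and 6.30, 6.02, 6.10 and 5.96 in fresh TII cells. On AF014365_s_at it was 4.02, 4.19 and 3.94 in culture, 4.11, 3.73, 3.98 and 4.19 in fresh TI cells and 5.03, 4.71, 5.002 and 4.93 in fresh TII cells. On both, fresh TII arrays stood above all other arrays. Fresh TI cells were lower than fresh TII cells by -0.75 ± 0.09 (adjusted p = 1.93e-05) on the first and -0.91 ± 0.11 (adjusted p = 1.87e-05) on the second. Cultured TII cells were lower by -0.57 ± 0.10 (adjusted p = 0.000402) and -0.87 ± 0.12 (adjusted p = 5.69e-05).

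The brightest Cd44 probe set, M61875_s_at, scattered more. It read 6.48, 6.86 and 7.04 in cultured TII cells, 6.27, 6.96, 7.07 and 6.21 in fresh TI cells and 7.37, 7.04, 7.29 and 7.01 in fresh TII cells. Fresh TI and cultured arrays each overlapped the fresh TII arrays. Its fresh TI difference of -0.55 ± 0.19 was called (adjusted p = 0.0303). That call was lost without fresh TI array 1 (-0.43, adjusted p = 0.0964), without fresh TI array 4 (-0.41, 0.0862), without fresh TII array 1 (-0.48, 0.0842) and without fresh TII array 3 (-0.51, 0.0687). Array weights ended it too (-0.29, adjusted p = 0.132). The change in culture was -0.38 ± 0.21 (adjusted p = 0.198), and it passed in the fit that blocked on replicate number (-0.48, adjusted p = 0.0487) and without fresh TI arrays 2 and 3 (-0.38, adjusted p = 0.0453). The fourth probe set, AF014365_i_at, lay between 1.795 and 2.002 on all arrays, among the dimmest 0.87% of probe sets by mean signal, and was called in no comparison. Cultured TII and fresh TI cells were not separated on any of the 4, with differences of 0.0075 to 0.18. On A30543cds_s_at that difference passed after quantile normalization (0.24, adjusted p = 0.0444) and without cultured TII array 1 (0.27, adjusted p = 0.0334). It passed on the very dim AF014365_i_at with the spread of the arrays matched (0.33, adjusted p = 0.00228), and on M61875_s_at without fresh TI arrays 2 and 3 (0.55, adjusted p = 0.0113).

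Sdc1 (25216), the epithelial syndecan, had 2 probe sets. S61865_s_at read 9.47, 9.40 and 9.31 in cultured TII cells, 8.397, 8.53, 8.67 and 8.15 in fresh TI cells and 9.68, 9.63, 9.41 and 9.51 in fresh TII cells. X60651mRNA_s_at read 9.18, 8.72 and 8.92 in cultured TII cells, 7.66, 7.80, 7.99 and 7.92 in fresh TI cells and 8.84, 8.78, 8.81 and 8.88 in fresh TII cells. On both probe sets the fresh TI arrays were the lowest, without overlap, and the TII groups overlapped. Fresh TI cells were lower than fresh TII cells by -1.12 ± 0.11 (2.17-fold, adjusted p = 2.62e-06) and -0.98 ± 0.10 (1.98-fold, adjusted p = 4.95e-06). Cultured TII cells were higher than fresh TI cells by 0.96 ± 0.11 (adjusted p = 1.94e-05) and 1.09 ± 0.11 (adjusted p = 3.96e-06). Culture left no called change from fresh TII cells, at -0.16 (95% interval -0.41 to 0.087, adjusted p = 0.339) and 0.11 (-0.13 to 0.34, adjusted p = 0.517). On the first probe set that depended on the scaling, since quantile normalization gave -0.29 (adjusted p = 0.0218).

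Sdc4 (24771), the focal adhesion syndecan, had the largest differences from fresh TII cells among the 7 genes. S61868_g_at, its brightest probe set, read 10.2, 10.1 and 9.76 in cultured TII cells, 9.72, 9.92, 9.80 and 9.73 in fresh TI cells and 11.3, 11.4, 11.2 and 11.4 in fresh TII cells. S61868_at read 10.1, 9.95 and 9.68 in culture, 9.25, 8.97, 9.43 and 9.29 in fresh TI cells and 10.96, 11.07, 10.97 and 11.15 in fresh TII cells. The fresh TII arrays stood clear of both other groups on each. Fresh TI cells were lower than fresh TII cells by -1.55 ± 0.10 (2.92-fold, adjusted p = 4.84e-08) and -1.80 ± 0.11 (3.48-fold, adjusted p = 4.43e-08). In culture the gene fell, with differences of -1.33 ± 0.10 (2.51-fold, adjusted p = 4.18e-07) and -1.12 ± 0.12 (2.18-fold, adjusted p = 7.45e-06).

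Cultured TII and fresh TI cells were separated for Sdc4 on S61868_at, at 0.68 ± 0.12 (adjusted p = 0.000447), and not on S61868_g_at, at 0.22 ± 0.10 (adjusted p = 0.0825). Quantile normalization ended the first call (0.22, adjusted p = 0.227) and turned the second value to -0.21 (adjusted p = 0.0991). The second value was called under median centring (0.27, adjusted p = 0.0465), with array weights (0.24, adjusted p = 0.0452) and without cultured TII array 3 (0.34, adjusted p = 0.00973). The order of these groups for Sdc4 was therefore not settled. Another, dimmer probe set, rc_AA800059_at, lay between 5.005 and 5.534 on all arrays and was called in no comparison. Its differences were -0.031 (95% interval -0.23 to 0.17) for fresh TI minus fresh TII and -0.23 (-0.44 to -0.0069, adjusted p = 0.111) for culture. For culture it was called lower with array weights (-0.31, adjusted p = 0.00901) and without cultured TII array 1 (-0.33, adjusted p = 0.0274). Without that array it was also lower in cultured TII than in fresh TI cells (-0.30, adjusted p = 0.0284).

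**Figure D2:**
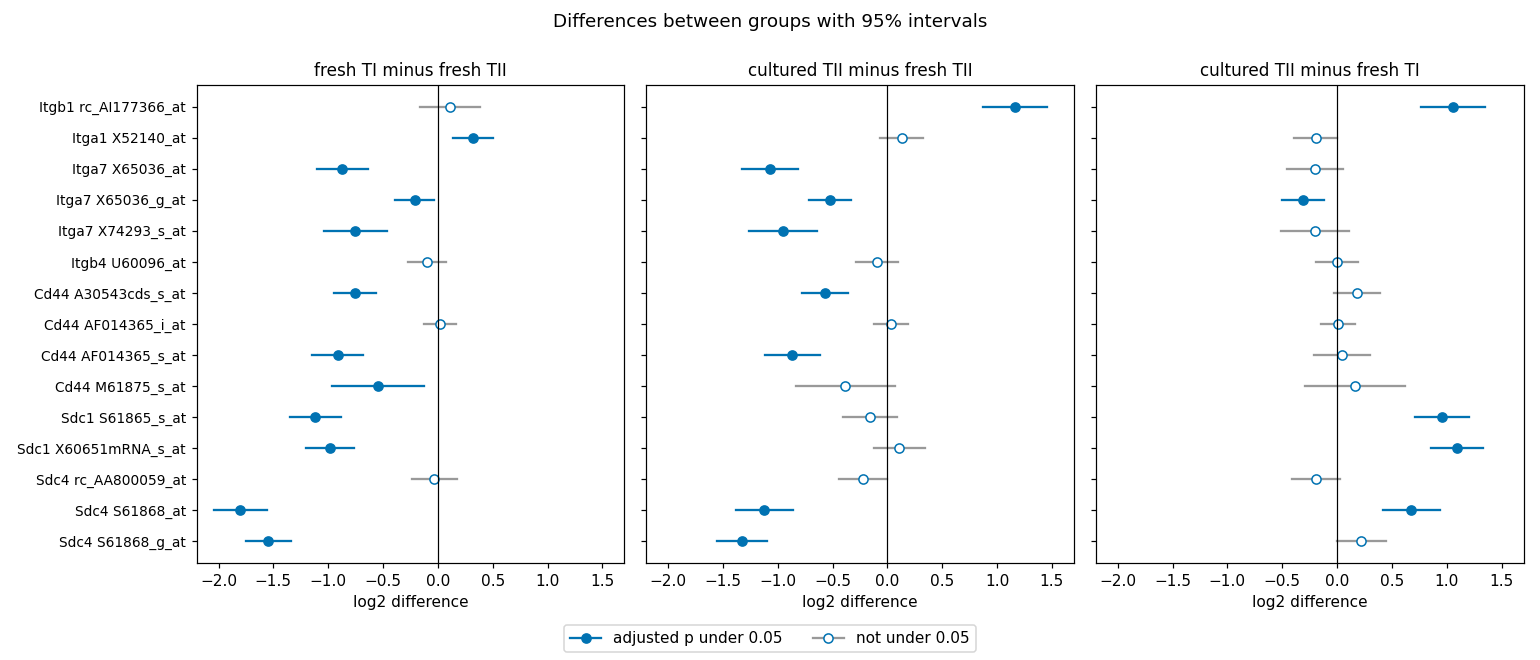
Log2 differences of the 15 probe sets in the 3 comparisons, with 95% intervals from the linear model. Filled points have an adjusted p under 0.05. Itgb1 stands alone on the right for cultured minus fresh TII at 1.16, and both S61868 probe sets of Sdc4 lie furthest left for fresh TI minus fresh TII, at -1.55 and -1.80.

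The spread among the fresh TI arrays bears on several of these values. Fresh TI arrays 2 and 3 read higher than arrays 1 and 4 for Itgb1, for the brightest Cd44 probe set and for S61865_s_at of Sdc1. So they did for Itga1 (5.02 and 4.89, against 4.78 and 4.77) and Sdc4 S61868_g_at (9.92 and 9.80, against 9.72 and 9.73). On Cd44 A30543cds_s_at the split was the same but very small (5.366 and 5.381, against 5.362 and 5.266). Surfactant and other type II transcripts were split in the same way. Sftpa1 read 8.61, 9.80, 10.02 and 7.41 on fresh TI arrays 1 to 4, Sftpb 9.20, 10.04, 9.95 and 8.22, and Lyz2 12.1, 12.7, 12.5 and 10.8. The standard deviation of all probe sets was also lower on arrays 1 and 4 (1.80 and 1.77) than on arrays 2 and 3 (1.85 and 1.84). Other probe sets ran the other way. Itgb4 read 6.84 and 6.78 on arrays 1 and 4 and 6.63 and 6.52 on arrays 2 and 3. The same order held for Itga7 X65036_at (6.93 and 6.88, then 6.72 and 6.63), Itga7 X74293_s_at (4.58 and 4.65, then 4.04 and 4.26) and Cd44 AF014365_s_at (4.11 and 4.19, then 3.73 and 3.98). Neither order held for the remaining receptor probe sets. Among them, Sdc1 X60651mRNA_s_at read 7.66, 7.80, 7.99 and 7.92 on arrays 1 to 4, and Sdc4 S61868_at 9.25, 8.97, 9.43 and 9.29. In a fit without fresh TI arrays 2 and 3, an alternative added after seeing the data, 10 of the 15 probe sets were called for fresh TI minus fresh TII, 9 for cultured minus fresh TII and 7 for cultured TII minus fresh TI. The part of remaining type II cells or RNA in these values was not tested, and in bulk samples fewer cells of a type and less RNA per cell cannot be told apart.

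**Figure D3:**
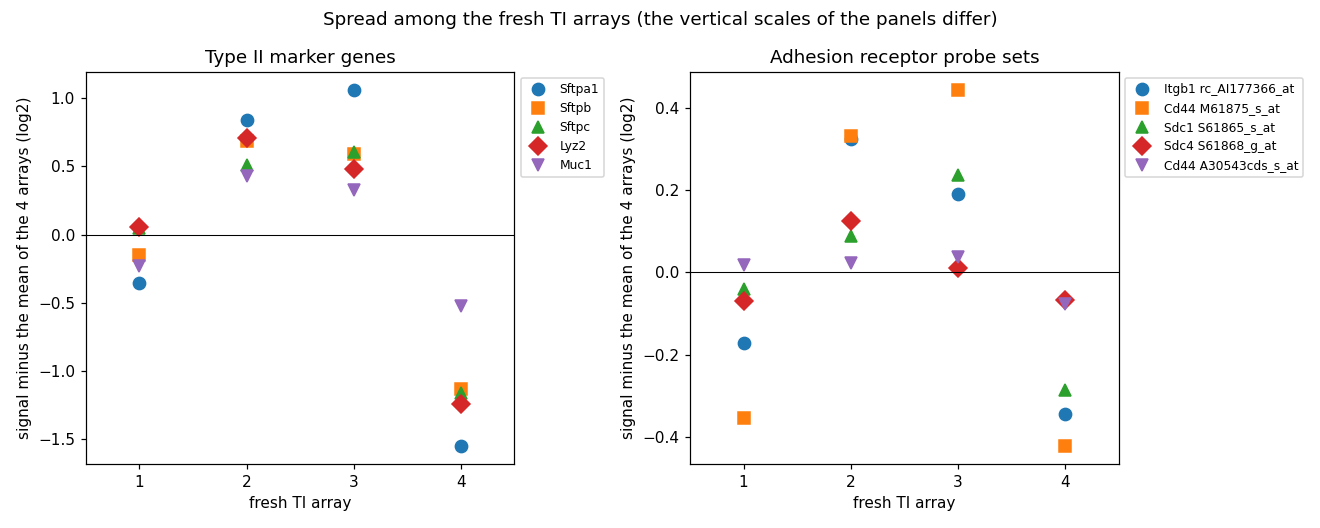
Signal on each fresh TI array minus the mean of the 4 arrays (log2), for 5 type II marker genes on the left and 5 receptor probe sets on the right. The vertical scales differ. Sftpa1, Sftpb, Sftpc, Lyz2 and Muc1 are higher on arrays 2 and 3 than on arrays 1 and 4. So are the 5 receptor probe sets shown, though only by very little for Cd44 A30543cds_s_at. Some receptor probe sets not shown, among them Sdc1 X60651mRNA_s_at, Sdc4 S61868_at and Itgb4 U60096_at, are not split this way.

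The labels were set against marker genes. Relative to fresh TII cells, fresh TI cells had all 6 measured type I markers higher and all 8 type II markers lower. Cultured TII cells had 5 of the 6 type I markers higher and all 8 type II markers lower than fresh TII cells. Against fresh TI cells, all 6 and all 8 were lower in culture. Summed type II marker signal (log2) was 11.1 to 11.3 on cultured TII, 12.5 to 14.002 on fresh TI and 15.1 to 15.2 on fresh TII arrays. Of 15 fibroblast and smooth muscle markers, 8 were higher and 0 lower in fresh TI than in fresh TII cells (all genes 33% and 21.2%). Col3a1, Eln, Col1a2 and Col1a1 differed by 1.31 to 2.52. The differences of Myh11, Tagln, Pdgfrb and Actg2 were small, at 0.18 to 0.32, beside a median of 0.11 for all genes. In cultured against fresh TII cells 3 of the 15 were higher and 1 lower (all genes 20.5% and 14%). The list's summed signal was 11.5 to 11.9 on cultured TII, 10.9 to 11.8 on fresh TI and 10.02 to 10.41 on fresh TII arrays. Tagln led that sum in culture, with a mean of 10.4 in cultured and 5.40 in fresh TII cells, followed by Mgp (9.76 and 7.85). Acta2 also rose in culture, by 0.47 on its brightest probe set and by 2.02 and 1.73 on its others, and Eln fell (-0.64). Dcn was not called in culture on its brightest probe set (0.89). Its other probe sets gave 1.17 and 1.21, called higher, and 0.63, not called. Of 10 macrophage and leukocyte markers 2 were higher and 2 lower in fresh TI than in fresh TII cells, and 1 and 1 in cultured TII than in fresh TII cells. Their summed signal was 9.09 to 9.72 on cultured TII, 9.58 to 10.3 on fresh TI and 11.2 to 11.4 on fresh TII arrays. Cd74, the MHC class II invariant chain, led that sum in fresh TII cells, with a mean of 7.41 in cultured TII, 9.13 in fresh TI and 11.03 in fresh TII cells. Ptprc and Cd79b were instead higher in fresh TI than in fresh TII cells, by 0.43 and 0.27, and the list's median signal per array was 5.32 to 5.38 on cultured TII, 5.55 to 5.80 on fresh TI and 5.46 to 5.55 on fresh TII arrays. Of 8 endothelial markers 4 were higher and 1 lower in fresh TI than in fresh TII cells. Sele, Nos3, Vwf and Selp were higher by 0.25 to 0.35, and Edn1 was lower (-1.71). Pecam1 was not called and read 4.91 to 5.02 on fresh TI and 4.81 to 5.01 on fresh TII arrays. In cultured against fresh TII cells 1 was higher, Edn1 by 1.49, and 1 lower, Kdr (-0.55). Of 6 airway and basal cell markers 3 were higher, by 0.36 to 0.60, and 3 lower in fresh TI than in fresh TII cells, and 0 were higher and 3 lower in culture. The club cell genes Cyp2f4 and Scgb1a1 had by far the largest of these differences, at -4.39 and -2.62 for cultured minus fresh TII and -4.07 and -3.31 for fresh TI minus fresh TII. Summed airway signal was 8.75 to 9.17 on cultured TII, 8.69 to 8.83 on fresh TI and 11.5 to 11.8 on fresh TII arrays. The type II, leukocyte and airway sums were thus all highest on fresh TII arrays. Cd74 led the leukocyte sum there, and Cyp2f4 and Scgb1a1 led the airway sum. Krt14, Krt5 and Tp63 of the airway and basal list were instead higher in fresh TI than in fresh TII cells. The 1 mesothelial marker, Wt1, was not called on its brightest probe set. Its other probe sets were called higher in fresh TI than in fresh TII cells, by 0.29 and 0.43. They were called lower in cultured TII than in fresh TI cells (-0.42 and -0.57), and not called between cultured and fresh TII cells. The part of these other cells in the receptor values was not tested. For beta-actin, the 3' control probe set minus the 5' one, which gauges RNA integrity, gave -0.33 to -0.083 on cultured TII, 0.21 to 0.43 on fresh TI and 0.32 to 0.43 on fresh TII arrays. The same difference for GAPDH was 0.30 to 0.45 on cultured TII, 0.41 to 0.69 on fresh TI and 0.47 to 0.57 on fresh TII arrays. For hexokinase it was 1.13 to 1.21 on cultured TII, 1.27 to 1.49 on fresh TI and 1.04 to 1.28 on fresh TII arrays. The part of RNA integrity in the changes in culture was not tested.

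Among 7 other integrin subunits on the array, fresh TI cells had 4 higher and 0 lower than fresh TII cells, with a list median of 0.25 beside 0.11 for all genes. Over all genes 33% were called higher and 21.2% lower in that comparison. The differences were small, at 0.50 ± 0.09 for Itgb3, 0.45 ± 0.08 for Itgb7 (0.21, not called, on its other probe set) and 0.27 ± 0.08 for the platelet chain Itga2b. In culture 2 of 7 rose and 0 fell (all genes 20.5% and 14%). Itgav, which forms receptors for fibronectin, vitronectin and osteopontin, rose by 0.83 ± 0.10 (adjusted p = 3.01e-05), and the leukocyte chain Itgam by 0.57 ± 0.13, to a mean of 3.81 in cultured TII cells against a dim 3.24 in fresh TII cells. Itgav was also higher in cultured TII than in fresh TI cells, by 0.74 ± 0.10, as Itgb1 was. Unlike Itgb1, it was dim, with means of 4.75 in cultured TII, 4.01 in fresh TI and 3.92 in fresh TII cells.

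Other proteoglycans and matrix receptors gave 5 higher and 1 lower of 10 in fresh TI against fresh TII cells, and 1 higher and 0 lower in culture. Over all genes 33% were higher and 21.2% lower in the first comparison, and 20.5% and 14% in culture. These shares are also the background for the lists that follow. The glypican Gpc3, a heparan sulfate proteoglycan anchored by lipid, was furthest apart. It was higher in fresh TI than in fresh TII cells by 2.14 ± 0.29, with its other probe sets at 0.85 and 0.43. Ddr1, a collagen-binding receptor tyrosine kinase, was higher by 0.48 ± 0.07 on its brightest probe set and not called on the others. Sdc2, another syndecan, was the 1 gene of the list that rose in culture, by 0.60 ± 0.07, and it was lower in fresh TI than in fresh TII cells (-0.39, named after its value was seen). Sdc2 was higher in cultured TII than in fresh TI cells by 0.99 ± 0.07.

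Laminins and collagens are ligands of these integrins. Of 15 laminin, collagen and other basement membrane genes, 12 were higher and 0 lower in fresh TI than in fresh TII cells (list median 0.59, all genes 0.11). In culture 6 rose and 1 fell (list median 0.12, all genes -0.0052). The laminin chain Lama3, part of a ligand of the Itgb4 integrin, was higher in fresh TI cells by 2.92 ± 0.13 and in culture by 3.27 ± 0.14. Col3a1 was higher by 2.52 ± 0.47 in fresh TI than in fresh TII cells. Col3a1, Col1a2 (1.33) and Col1a1 (1.31) are also on the fibroblast list, of which 8 of 15 were higher in that comparison. The collagen chain Col4a5 rose in culture by 2.48 ± 0.16, and agrin was 2.05 ± 0.08 higher in fresh TI than in fresh TII cells (2.35 on its other probe set). Lamb2, a laminin chain, was the 1 gene of the list that fell in culture, with a difference of -0.92 (-0.32 on its other probe set).

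Of 11 provisional matrix and hyaluronan genes, 3 were higher and 1 lower in fresh TI than in fresh TII cells, and 4 rose and 2 fell in culture. Osteopontin (Spp1), a ligand of CD44 and of several integrins, was at 9.94 in cultured TII, 3.72 in fresh TI and 2.89 in fresh TII cells on average. Fibronectin (Fn1) averaged 10.7 in cultured TII, 7.32 in fresh TI and 5.06 in fresh TII cells on its brightest probe set. Its other probe sets differed less, rising in culture by 2.08 to 3.95. Their fresh TI minus fresh TII differences were 0.14 to 0.90, the smallest not called. Has2, which makes hyaluronan, had a mean of at most 1.86 in any group and was called in no comparison.

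Linkers between these receptors and the cytoskeleton gave 8 higher and 2 lower of 17 in fresh TI against fresh TII cells. In culture 9 rose and 1 fell, with a list median of 0.49 beside -0.0052 for all genes. Moesin (Msn), a partner of CD44, was higher by 1.86 ± 0.15 in fresh TI and by 1.82 ± 0.16 in cultured TII than in fresh TII cells. Its other, very dim probe set did not follow, at 0.14 and -0.28. Its relative ezrin (Ezr) was lower in both, at -0.70 and -0.83 (named after its values were seen). The small GTPases Rac1 and Rhoa rose in culture by 1.38 ± 0.12 and 1.38 ± 0.14. Focal adhesion kinase (Ptk2) was 1.21 ± 0.12 higher in cultured TII than in fresh TI cells. Against fresh TI cells, 8 of the 17 linkers were higher and 5 lower in culture (all genes 25.8% and 34.2%), and quantile normalization lowered the 8 to 4.

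All 14 listed tetraspanins and lateral partners were measured. In fresh TI against fresh TII cells 5 were higher and 4 lower, and in culture 7 rose and 4 fell. Caveolin 1 (Cav1) was 3.75 ± 0.17 higher and the sialoglycoprotein Cd24 was lower by -3.38 ± 0.27 in fresh TI than in fresh TII cells. Cd9, a tetraspanin that associates with integrins of the Itgb1 chain, was 2.08 ± 0.12 higher in fresh TI than in fresh TII cells (2.12 on its other probe set). In culture Tspan8 fell by 2.62 ± 0.20 and Cd24 by 2.14 ± 0.29, while Cd53 rose by 1.93 ± 0.43. Cd53 is known from leukocytes, whose list gave 1 higher and 1 lower of 10 in that comparison.

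Proteases that can release syndecan and CD44 outer parts, with their inhibitors, were higher for 7 of 11 and lower for 0 in fresh TI against fresh TII cells. In culture 7 rose and 0 fell (list median 0.92). The inhibitor Timp3 rose by 3.16 ± 0.10, the membrane protease Mmp14 by 2.25 ± 0.19 and the sheddase Adam17 by 1.86 ± 0.11 relative to fresh TII cells. Timp2 was 1.95 ± 0.08 higher in fresh TI than in fresh TII cells. Shedding itself was not measured by these arrays.

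**Figure D4:**
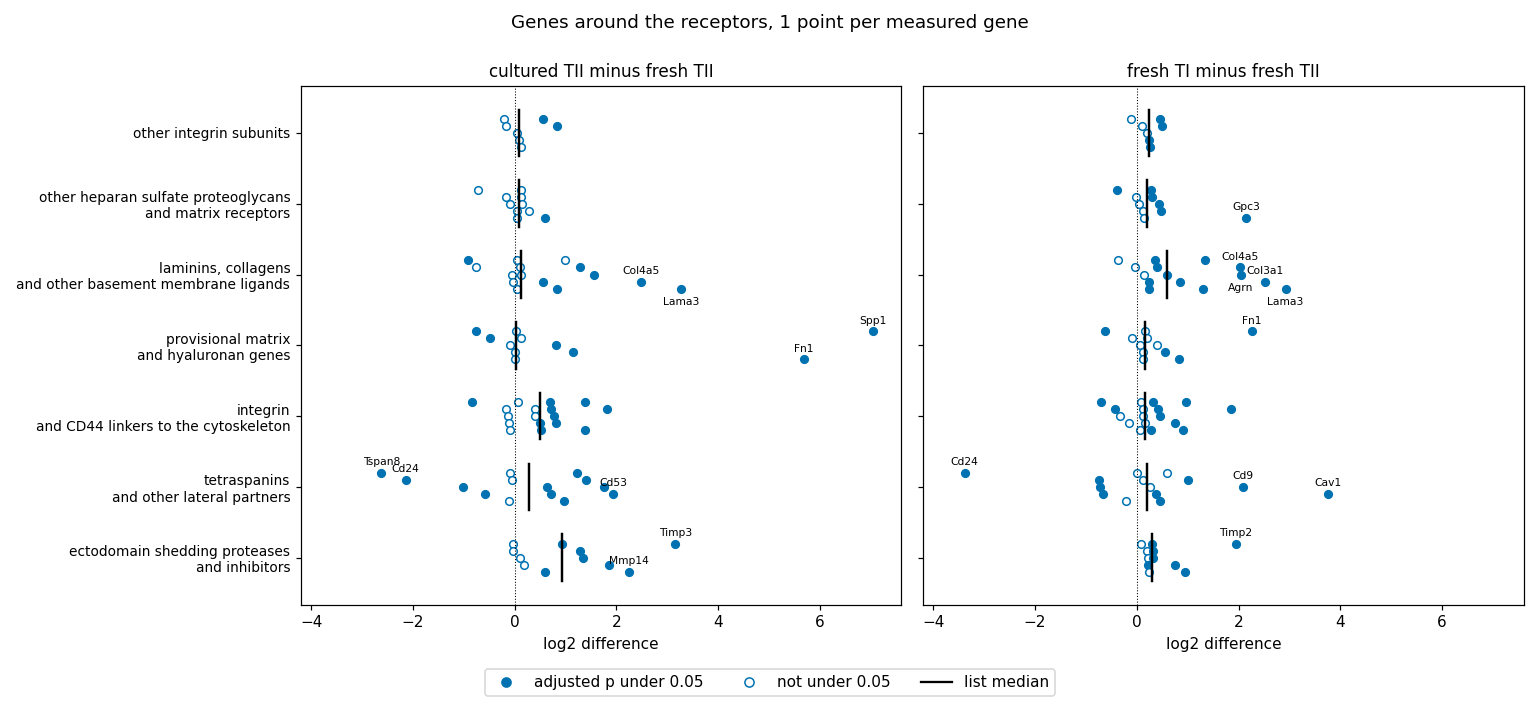
Log2 differences of genes around the receptors, 1 point per measured gene, for cultured TII minus fresh TII (left) and fresh TI minus fresh TII (right). Filled points have an adjusted p under 0.05 and bars are list medians. Spp1 at 7.05 and Fn1 at 5.68 lie furthest right on the left, and 12 of 15 laminin and collagen genes are filled on the right.

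For the 4 genes whose group means spanned at least 1 log2 unit, the 3 genes nearest in pattern were found among 4736 genes. Likeness was the root mean square difference between log2 profiles over the 11 arrays, each centred on its own mean. Nearest to Itgb1 were Vps29 (0.080), a part of the retromer that sorts endosomal cargo, Ergic1 (0.12) and the RNA polymerase subunit Polr2g (0.13). For Itga7 they were the transcription factor Cebpa (0.11), the secreted guidance protein Slit3 (0.11) and the adhesion protein Nectin1 (0.12). Sdc1 was nearest to the RNA-binding protein Celf1 (0.10), the RNA helicase Ddx3x (0.13) and Bckdhb (0.13), and Sdc4 to Ggh (0.13), Azin1 (0.14) and Rph3al (0.15).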

How the data were processed

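The deposited table holds 1 log2 value per probe set and array, as processed by the authors. For their summary, background and scaling steps, tools and settings are not given in the sources used here. That the base is 2 was inferred: as a natural logarithm the highest, 13.163, would stand for 520737, beyond the usual scanner limit of 65535. Per the labels, total RNA was prepared with Superscript Choice and an ENZO labelling kit. The deposited values entered the tests unchanged. Of 8799 probe sets, 59 controls were kept apart. The probe annotation gave 1 gene for 7006 of the other 8740, several for 308 and none for 1426.

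With limma 3.58.1 in R 4.3.3, lmFit estimated 3 group means per probe set over the 11 arrays and eBayes gave two-sided tests, a step tested on simulated data. Errors of differences are standard errors from this model. P-values were adjusted over the 8740 probe sets. For other genes, the brightest probe set stood for the gene. Array number, 3 or 4 a group, limits the precision, and no detection calls were used. The members and gene lists were chosen with earlier results of these data known. All member probe sets are named, with up to 3 called genes of greatest difference per list and comparison and the 3 nearest patterns of members spanning 1 log2 unit. Alternatives were other scalings, filters, priors, array weights, a replicate block, 2-group fits, a stricter threshold and leaving out arrays. Replicate numbers in the titles were not used as pairs: residuals of the 10 array pairs sharing a number had correlations of -0.20 to 0.28, and those of the other 30 pairs -0.27 to 0.23.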

Additional observations from a re-analysis of the deposited data

Results flagged for a closer look

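On Cd44 probe set A30543cds_s_at, fresh TI array 4 read 5.266, below the other fresh TI arrays, of which the nearest was at 5.362. The gap was 0.83 of the range of the 4 arrays, just over the limit of Dixon's test, and the whole range was narrow. This was the 1 such value in 30 sets of 4 arrays tested, and chance gives about 1 in 20. The fresh TI difference of that probe set lay between -0.80 and -0.68 when any 1 array was left out.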

How the results depend on the processing

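Over the alternatives run, the number of the 15 receptor probe sets called stayed between 8 and 11 for fresh TI minus fresh TII, 6 and 9 for cultured minus fresh TII and 5 and 7 for cultured TII minus fresh TI. The low ends of 8 and 6 came from the fit without probe sets dimmer than the median. Itga1, Itga7 X74293_s_at and Cd44 AF014365_s_at, among others, were not tested in that fit. Apart from the stricter threshold, all 8 calls of cultured minus fresh TII held wherever the probe set was tested, as did 9 of 11 for fresh TI minus fresh TII (not Itga7 X65036_g_at and Cd44 M61875_s_at) and 4 of 5 for cultured TII minus fresh TI (not Sdc4 S61868_at). With the replicate number as a block, 10, 9 and 5 were called in these comparisons. Besides the Itga7 and Cd44 calls given above, the block changed no call of the 15. Leaving out single arrays gave 9 to 11, 8 to 9 and 5 to 7. Without probe sets dimmer than the median, 2671 of all probe sets were called for fresh TI minus fresh TII and 2993 for cultured TII minus fresh TI, where fewer were tested. Of calls for cultured TII minus fresh TI, 2111 were higher and 3124 lower as reported, against 2323 and 2294 with the spread of the arrays matched. For fresh TI minus fresh TII, 2996 were higher and 1787 lower as reported, against 2252 and 2005 with the spread matched. The median difference over all probe sets went from 0.12 to 0.042 there, so small differences called higher in fresh TI cells depend on the scaling.

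Signs turned for small differences. After quantile normalization the fresh TI minus fresh TII value of Cd44 AF014365_i_at was -0.066, cultured minus fresh TII of Sdc1 X60651mRNA_s_at -0.0091, and cultured TII minus fresh TI -0.062 for Itgb4 and -0.21 for Sdc4 S61868_g_at. Median centring gave -0.020 for Cd44 AF014365_i_at in fresh TI minus fresh TII. With the spread of the arrays matched that value was -0.24 (adjusted p = 0.0103), a very dim probe set, and cultured TII minus fresh TI was -0.044 for Itgb4 and -0.067 for Sdc4 S61868_g_at. With array weights Cd44 M61875_s_at stood at -0.030 for cultured TII minus fresh TI. Without fresh TI arrays 2 and 3, fresh TI minus fresh TII was -0.15 for Itgb1, 0.020 for Itgb4 and 0.0093 for Sdc4 rc_AA800059_at. The same fit gave, for cultured TII minus fresh TI, -0.12 for Itgb4, -0.023 for Cd44 AF014365_i_at and -0.10 for AF014365_s_at. Leaving out single arrays, fresh TI minus fresh TII ran from -0.00025 to 0.22 for Itgb1, -0.00058 to 0.056 for Cd44 AF014365_i_at and -0.083 to 0.011 for Sdc4 rc_AA800059_at. Cultured minus fresh TII ran from -0.013 to 0.090 for Cd44 AF014365_i_at and -0.013 to 0.22 for Sdc1 X60651mRNA_s_at. Cultured TII minus fresh TI ran from -0.057 to 0.053 for Itgb4, -0.037 to 0.067 for AF014365_i_at and -0.045 to 0.11 for AF014365_s_at. The cause was not tested in any of these cases. Averaging a gene's probe sets, in place of the brightest, added calls for Cd44 in culture (-0.45, adjusted p = 0.000969) and for Sdc4 in cultured TII minus fresh TI (0.23, adjusted p = 0.0312). Among the other lists, scaling moved small counts: with the spread matched 1 other integrin became lower in fresh TI, and with quantile normalization 2 proteoglycan genes rose in culture.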

Other observations

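The 3 cultured TII arrays differed from each other in markers of other cells. The fibroblast collagen gene Col3a1 read 6.90, 6.85 and 4.40 on cultured TII arrays 1 to 3, and Col1a2 7.02, 6.99 and 5.07. The matrix proteoglycan gene Dcn read 6.63, 8.05 and 8.60, and the myeloid integrin chain Itgam 3.50, 3.77 and 4.16. Itgb1 read 9.606, 9.615 and 9.616 on the same arrays. The Cd44 probe sets differed: M61875_s_at read 6.48, 6.86 and 7.04, and A30543cds_s_at 5.35, 5.61 and 5.63. AF014365_s_at read 4.02, 4.19 and 3.94, and the very dim AF014365_i_at 1.795, 1.945 and 2.002.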
